A study of Mus musculus with 4 samples.

Results

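H22 and Hepa1-6 are mouse hepatocarcinoma cell lines that the study's labels describe as lacking the ability to spread through the lymphatics. This comparison sets their miRNAs side by side. Its members are the mouse miRNAs on the array whose background-subtracted intensity was 50 units or more in at least 1 of both lines, the minimum at which the authors took a miRNA as usable. That rule kept 92 of 414 mouse miRNAs. Of these, 66 were measured in both lines, 21 were under the minimum in Hepa1-6 alone and 5 were under it in H22 alone. Members just inside the minimum were miR-98 (55.75 units in H22, 6 in Hepa1-6), miR-195 (57.75 units in H22, 62.25 in Hepa1-6) and miR-717 (39.5 in H22, 68.5 in Hepa1-6). Just outside it were miR-181b (49 units in H22, 5.5 in Hepa1-6), miR-338-3p (27 in H22, 48 in Hepa1-6) and miR-200b (17.5 in H22, 47.5 in Hepa1-6).

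H22 grows in suspension, carries no genetic change named in the labels and received no treatment. Its culture medium and passage are not described separately in the labels. Hepa1-6 grows attached, was kept in DMEM with fetal bovine serum and antibiotics, and was likewise untreated. The series also holds Hca-P and Hca-F, suspension lines derived from H22 that do reach lymph nodes and were grown in the mouse abdomen before culture. Each of the 4 lines gave 1 RNA sample, read on 1 miRCURY LNA array after labelling with the dye Hy3. The series' design note names Hepa1-6 and Hca-F as RNA sources, while the sample labels name all 4 lines. Tumour of origin, growth form and array differ together between H22 and Hepa1-6 and cannot be told apart. Whether the medium differed too is not known. Neither line separates a metastatic from a non-metastatic state, since both carry the same label for it.

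miRNAs are short RNAs cut from hairpin precursors that pair with messenger RNAs, mainly through bases 2 to 8 (the seed), and lower their output. Members of a family share a seed and therefore many targets, and members of a cluster are cut from 1 longer transcript. In liver tumours the let-7 family is known as a brake on growth and on fetal genes, because let-7 miRNAs restrain Ras, Myc and Hmga proteins and are themselves held back by the RNA-binding protein Lin28. The miR-17-92 cluster is known as a driver of proliferation, and miR-122 is the most abundant miRNA of normal hepatocytes.

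The mature sequences of the 7 measured let-7 family members are shown first, because this family held the widest differences between the lines and its members differ by few bases. They are RefSeq sequences (GRCm38.p6), written 5′ to 3′ with the seed in capitals.
let-7d: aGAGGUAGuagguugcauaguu
let-7a: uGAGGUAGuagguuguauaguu
let-7i: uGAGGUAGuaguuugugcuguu
let-7c: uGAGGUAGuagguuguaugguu
let-7b: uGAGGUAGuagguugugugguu
miR-98: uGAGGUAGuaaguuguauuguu
let-7e: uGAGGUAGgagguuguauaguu
All 7 carry the seed GAGGUAG. Over the 22 bases, let-7a differs from let-7c by 1 base, from let-7e by 1 base and from let-7d by 2 bases. Probes for such close sequences can share signal, and how well these probes separate the family was not tested.

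Another set is shown because its members share the seed AAAGUGC across clusters on different chromosomes. miR-17 (chr14:115043684-115043706, plus strand) and miR-20a (chr14:115044183-115044205, plus strand) belong to the miR-17-92 cluster. miR-93 (chr5:138165574-138165596, minus strand) and miR-106b (chr5:138165787-138165807, minus strand) belong to the related miR-106b-25 cluster.
miR-17: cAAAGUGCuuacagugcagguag
miR-20a: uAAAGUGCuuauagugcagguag
miR-106b: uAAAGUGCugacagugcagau
miR-93: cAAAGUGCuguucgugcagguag
The third set holds measured members of the miR-23, miR-27 and miR-24 clusters that had a matched sequence, which do not share a seed but are cut from common transcripts.
miR-23a: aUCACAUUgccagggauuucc
miR-24: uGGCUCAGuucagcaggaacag
miR-27b: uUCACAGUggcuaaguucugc
RefSeq sequences were matched for 74 of the 92 members by name.

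The level used below is the mean of 4 background-subtracted spots divided by the factor of its array, so that a level of 1 equals the median of 65 reference probes (the mouse and miRPlus probes at 50 units or more on all 4 arrays). The factor was 367 units in H22 and 403.75 units in Hepa1-6. A miRNA under 50 units was set to 50 units before scaling, which is a level of 0.136 in H22 and 0.124 in Hepa1-6, and its fold is then a bound, written "at least". Errors are the SD over the 4 spots of 1 array. They are technical, say nothing of how far separate cultures would differ, and allow no p-value. Levels of different probes are not comparable with each other, since each probe binds its target with its own strength. The log2 fold is H22 over Hepa1-6.

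The arrays shared more than their design. The 160 spots of the Hy3 control ranged between 7060 and 15840 units in H22 and between 7059 and 15839 in Hepa1-6, and spot for spot H22 minus Hepa1-6 lay between -3 and 24 units, at most 0.257% of the signal. The same spots in H22 minus Hca-P lay between -4656 and 2443 units. Hca-P and Hca-F were as close to each other as H22 and Hepa1-6, with differences between -2 and 20 units and an r of spot deviations, as described next, of 0.693. Deviations of single spots from their probe's mean also went together in H22 and Hepa1-6 (r = 0.718 over 351 probes on the whole array, a description across probes that share printed positions), against 0.246 between H22 and Hca-P. The cause was not tested, and the H22 and Hepa1-6 values cannot be taken as fully independent measurements. For that reason the error of each fold is the SD of the 4 log2 folds taken spot by spot, with a median of 0.26 over the 66 miRNAs measured in both lines. It would be 0.39 if the spots were treated as unlinked. Single spots of a measured probe under 10 units were set to 10 units for these folds. For a bound, spots of the unmeasured line under 50 units were set to 50 units, so its SD mainly holds the spread of the measured line.

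**Figure D1:**
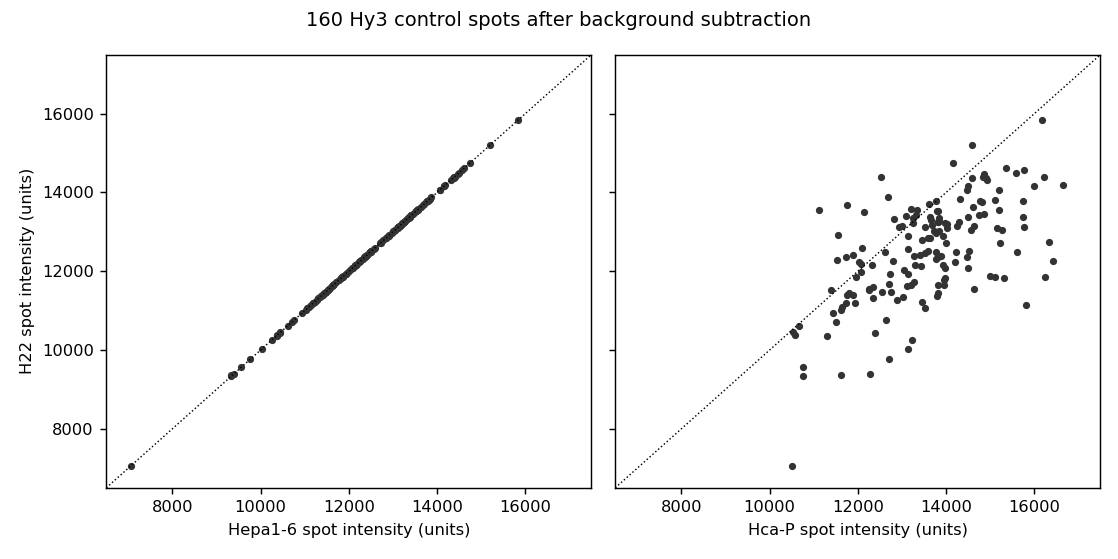
Background-subtracted intensity of the 160 Hy3 control spots in H22 (vertical axis, units) against the same spots in Hepa1-6 (left) and in Hca-P (right). Points in the left panel lie on the line of equality, with H22 minus Hepa1-6 between -3 and 24 units, while in the right panel H22 minus Hca-P spans -4656 to 2443 units.

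With the authors' scaling, more miRNAs were higher in H22 than lower. Of the 92 members, 31 (33.7%) were 2-fold or more higher in H22 and 3 (3.26%) were 2-fold or more lower, while 58 were under 2-fold apart. The median log2 fold over all members was 0.31, and over the 66 measured in both lines it was -0.02. Among the 31 higher miRNAs, 15 were measured in both lines and 16 were bounds. The direction of the bounds follows from the minimum, and their Hepa1-6 spots under it were set to it for the SD. For the bounds the next counts are therefore no separate support. In 29 of the 31 the log2 fold exceeded 2 spot-by-spot SDs, miR-24 and miR-27b, both bounds, being the others. The H22 spots lay above the Hepa1-6 spots without overlap in all 31, and below them without overlap in 1 of the 3 lower miRNAs. This balance depends on the scaling: quantile normalization gave 17 higher and 23 lower, the 75th percentile of all mouse probes gave 14 and 37, the 75th percentile of the miRNAs detected on all arrays gave 15 and 33, and the median over probes detected in both lines gave 25 and 6. Quantile normalization turned the median log2 fold of the members to -0.47, and the 2 percentile scalings gave -0.55 and -0.40. Under every one of these scalings the miRNAs counted as higher were among the 31. Except for quantile normalization this was fixed in advance, since 1 factor per array lowered every log2 fold alike. A level is relative to the array's reference probes, and fewer cells with a miRNA and less of it per cell cannot be told apart.

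**Figure D2:**
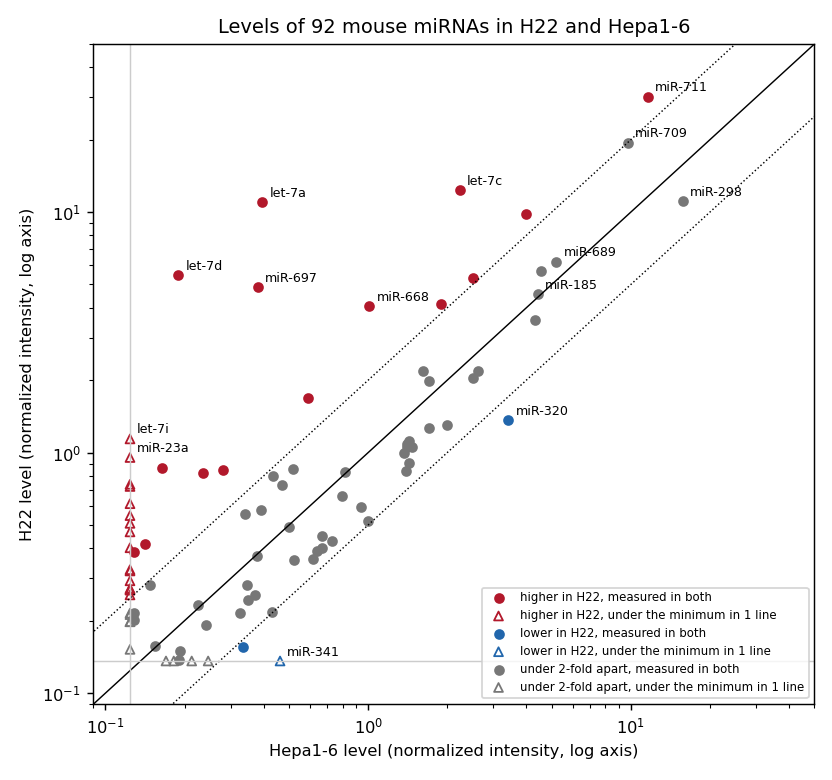
Level of each of the 92 miRNAs in H22 (vertical, log axis) and Hepa1-6 (horizontal, log axis), in normalized intensity. Red points are the 31 miRNAs 2-fold or more higher in H22, blue points the 3 lower, open triangles are bounds set at the detection floor (grey lines), and dotted lines mark 2-fold.

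Most measured members of the let-7 family, which hold back growth genes, were higher in H22. Of 9 family members on the array 7 were measured, 5 of them were 2-fold or more higher in H22 (beside 33.7% of all members), none was 2-fold lower, and the median log2 fold was 2.46, beside 0.31 over all members. The median kept its sign under every alternative, between 1.60 and 2.69. Of the 7, let-7i and miR-98 entered through H22 alone and are bounds.

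let-7d had spot levels of 5.54, 5.48, 5.53 and 5.32 in H22 (5.47 ± 0.103), against 0.159, 0.211, 0.188 and 0.198 in Hepa1-6 (0.189 ± 0.0222). Its 28.9-fold difference was the widest of those measured in both lines (log2 fold 4.86 ± 0.19 over spots). let-7a had spot levels of 10.1, 9.95, 12.3 and 11.7 in H22 (11.0 ± 1.17), against 0.344, 0.396, 0.334 and 0.510 in Hepa1-6 (0.396 ± 0.0807). That was 27.8-fold, a log2 fold of 4.80 ± 0.30. The spots of the lines did not overlap for either miRNA, and every H22 spot lay far above every Hepa1-6 spot. Both have a precursor on chromosome 13, and these lie close together (let-7d at chr13:48536078-48536099 and let-7a at chr13:48538239-48538260, minus strand). Other precursors of let-7a were not examined, so its value cannot be assigned to this cluster. let-7f, which belongs to the same cluster, was not measured (10.75 units in H22, 1.5 in Hepa1-6).

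let-7c had a level of 12.3 ± 0.943 in H22 and 2.23 ± 0.272 in Hepa1-6, a 5.50-fold difference. let-7b, whose precursor lies next to a let-7c precursor on chromosome 15, had 5.33 ± 0.712 in H22 and 2.50 ± 0.890 in Hepa1-6, a 2.13-fold difference with a spot-by-spot SD of 0.40 on a log2 fold of 1.09. The log2 folds were 2.46 for let-7c and 1.09 for let-7b, and let-7b went under 2-fold in some alternatives (0.22 at the lowest). The same mature let-7c is also cut from a precursor on chromosome 16, so its value cannot be assigned to the chromosome 15 cluster. let-7c and let-7b differ by 1 base, and signal shared between their probes was not tested. let-7i had a level of 1.14 ± 0.121 in H22 and was under the minimum in Hepa1-6 at 8 units, at least 9.20-fold higher in H22.

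let-7e did not share the difference. It had a level of 0.388 ± 0.129 in H22 and 0.637 ± 0.175 in Hepa1-6, a log2 fold of -0.72 ± 0.43, and its H22 spots (0.289, 0.264, 0.512 and 0.485) overlapped its Hepa1-6 spots (0.379, 0.681, 0.763 and 0.723). let-7e is cut from a cluster on chromosome 17 with miR-99b* (log2 fold -0.60) and miR-125a-5p (0.72), all 3 within 10 kb. miR-98 was just above the minimum in H22 (0.152 ± 0.0525) and at 6 units in Hepa1-6, at least 1.23-fold. Its spots did not overlap, and the detection floor sets this bound. let-7g was not measured, with 13.5 units in H22 and 1.5 in Hepa1-6.

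Some probes outside the mouse miRNA set differed in the same direction as let-7. Of 12 internal control positions 6 were at 50 units or more in either line, and 3 of those were 2-fold or more higher in H22, beside 33.7% of the mouse members. An internal control of the array (block 4, column 2, row 1), whose target the sources used here do not give, had a level of 7.83 ± 0.684 in H22 and 0.419 ± 0.0312 in Hepa1-6. A further internal control (block 1, column 11, row 7) had 1.22 ± 0.142 in H22 and was under the minimum in Hepa1-6 at 6.5 units. Of the lines derived from H22, Hca-P had 4 for the first of these controls and Hca-F had 0.343. For let-7a, Hca-P had 5.15 ± 0.448 and Hca-F 0.475 ± 0.067, and for let-7d Hca-P had 3.96 ± 0.403 and Hca-F 0.438 ± 0.0452. What these controls detect, and their part in the let-7 values, was not tested. The small nuclear RNA U6 was near equal (1.12 ± 0.225 in H22, 1.26 ± 0.0831 in Hepa1-6).

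**Figure D3:**
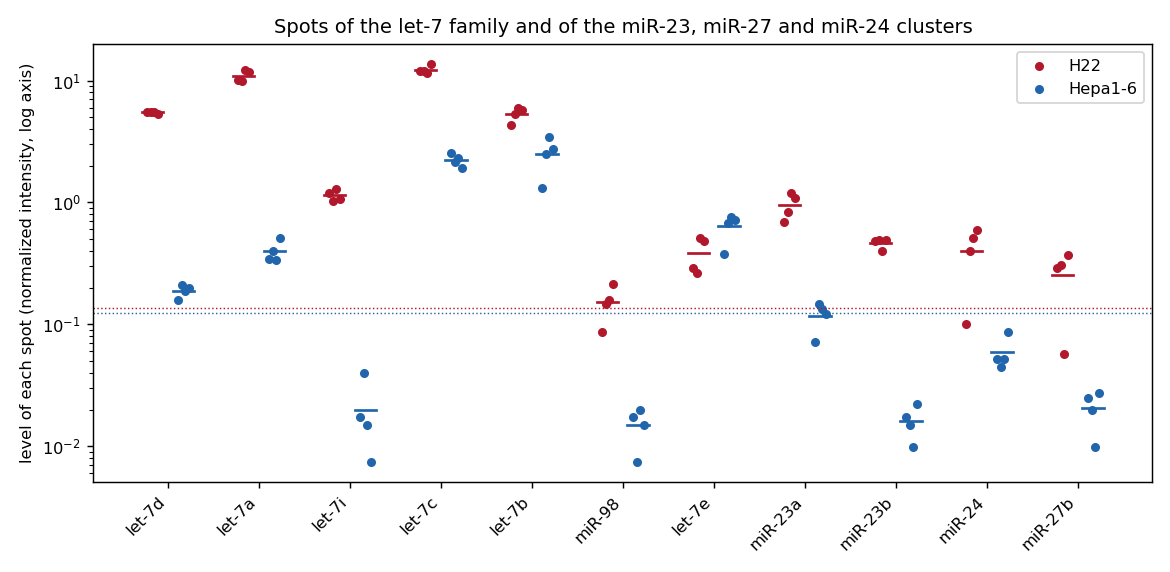
Level of each of the 4 spots (normalized intensity, log axis) for the measured let-7 family and the miR-23, miR-24 and miR-27 members, in H22 (red, left) and Hepa1-6 (blue, right), with bars at the means and dotted lines at the detection floors. The H22 spots of let-7d, let-7a, let-7i, let-7c and let-7b lie above their Hepa1-6 spots, while those of let-7e overlap, and miR-24 and miR-27b each have 1 H22 spot under the floor.

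The miR-23, miR-27 and miR-24 clusters, a pair of related clusters active in many cell types and linked to proliferation and vessel growth, had 4 of 5 members on the array above the minimum in H22 and none in Hepa1-6. These 4 entered the comparison through H22 alone, so their direction follows from the minimum, their folds are bounds, and their count is no support for the clusters as a whole. miR-23a had 0.954 ± 0.233 in H22 and 47.75 units in Hepa1-6, just under the minimum, at least 7.71-fold higher in H22. miR-23b had 0.468 ± 0.0453 in H22 and 6.5 units in Hepa1-6, at least 3.78-fold.

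miR-24 and miR-27b rest on uneven spots. miR-24, with precursors in both clusters, had H22 spots of 0.101, 0.398, 0.512 and 0.597 and a level of 0.402 in H22 against 23.75 units in Hepa1-6, at least 3.25-fold. Its spot-by-spot SD of 1.17, taken against the minimum, on a log2 fold of 1.70 leaves it within 2 SDs. miR-27b had H22 spots of 0.289, 0.305, 0.0572 and 0.373 and was at least 2.07-fold higher than its 8.25 units in Hepa1-6. With its Hepa1-6 spots set to the minimum, its log2 folds taken spot by spot ran between -1.11 and 1.59. The lowest sets an H22 spot under the floor against the minimum, and no H22 spot lay below a Hepa1-6 spot. Under quantile normalization the bound of miR-27b came to -0.03 on the log2 scale, which gives no direction. miR-27a was under the minimum in both lines (32.25 units in H22, 29.5 in Hepa1-6).

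The 4 measured miRNAs with the seed AAAGUGC, which promote cell cycle entry, were also above the minimum in H22 alone, which fixes their direction. miR-17 had 0.326 ± 0.0701 in H22 and 40.75 units in Hepa1-6, at least 2.63-fold. miR-106b had 0.272 ± 0.0840 in H22 and 31.25 units in Hepa1-6, at least 2.19-fold, and miR-93 had 0.270 ± 0.0277 in H22 and 40.25 units in Hepa1-6, at least 2.18-fold. miR-20a had 0.215 ± 0.0645 in H22 and 21.75 units in Hepa1-6, at least 1.73-fold. Under quantile normalization the bound of miR-20a came to -0.29 on the log2 scale, which gives no direction. The other 4 members of the miR-17-92 cluster on the array, at 19.75 units or less in H22, and the other 4 of the miR-106b-25 and miR-106a-363 clusters, at 17.75 units or less, were not measured in either line.

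The other wide bounds were of miRNAs measured in H22 and under the minimum in Hepa1-6. miR-22, a miRNA that restrains growth in several tumour types, had 0.738 ± 0.125 in H22 and was at least 5.96-fold higher than Hepa1-6. miR-378, encoded in the metabolic regulator gene Ppargc1b, had 0.723 ± 0.0833 in H22 and was at least 5.84-fold higher. miR-193 had 0.613 ± 0.0386 in H22 (at least 4.95-fold), miR-130a 0.547 ± 0.173 (at least 4.42-fold) and miR-671-5p 0.508 ± 0.209 (at least 4.10-fold). All 5 kept a 2-fold difference under each alternative. Smaller bounds of 2-fold or more included miR-125b-5p at least 2.37-fold and miR-16 at least 2.16-fold, which came to 0.23 and 0.05 on the log2 scale at the lowest over the alternatives. miR-21, widely raised in tumours, was barely above the minimum in H22 (0.198 ± 0.0407) and unmeasured in Hepa1-6, at least 1.60-fold. Under quantile normalization its bound came to -0.47 on the log2 scale, which gives no direction.

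Of the other miRNAs measured in both lines and 2-fold or more higher in H22, miR-697 came next to the let-7 pair in fold. Its spots were 4.53, 4.67, 4.97 and 5.32 in H22, against 0.448, 0.305, 0.448 and 0.322 in Hepa1-6, a 12.8-fold difference with no overlap. miR-138, known from neurons, had 0.864 ± 0.248 in H22 and 0.164 ± 0.0684 in Hepa1-6 (5.27-fold). The other measured neuronal marker, miR-129-5p, went the other way at a log2 fold of -0.47, and the defining neuronal miRNAs miR-124 and miR-9 were not measured in either line. miR-675-5p, cut from the imprinted fetal transcript H19, had 0.843 ± 0.0760 in H22 and 0.280 ± 0.0317 in Hepa1-6 (3.01-fold). Beyond these, miR-546 was 3.47-fold, miR-490 3.03-fold, miR-744 2.93-fold and miR-183* 2.18-fold higher in H22. At the lowest over the alternatives their log2 folds were 0.94 for miR-546, 0.58 for miR-490, 0.68 for miR-744 and 0.24 for miR-183*, and that of miR-675-5p was 0.73. miR-744 rests on 1 of 2 probes, and the other had 186.75 units in H22 and 38.25 in Hepa1-6.

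Strongly lit probes carried some of these differences. miR-711 had 30.2 ± 3.48 in H22 and 11.6 ± 1.73 in Hepa1-6, a 2.60-fold difference with a spot-by-spot SD of 0.13 on a log2 fold of 1.38, which came to 0.42 at the lowest over the alternatives. miR-709 had 19.4 ± 7.29 in H22 and 9.72 ± 2.09 in Hepa1-6 and stood just under the threshold at 1.99-fold. miR-298 had 11.1 ± 2.78 in H22 and 15.8 ± 1.32 in Hepa1-6 (log2 fold -0.51), from the brighter of 2 probes of that name. The dimmer probe was under the minimum in both lines, at 17 units in H22 and 35.5 in Hepa1-6. Of the 19 members whose brighter level was 2 or more, 9 were higher in H22, 1 was lower and 8 were near equal. Higher in H22 were 11 of the 37 members with a brighter level of 0.5 to 2 and 11 of the 36 below that, beside 33.7% of all members. Over all members 3.26% were lower and 32.6% near equal.

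The imprinted Dlk1-Dio3 cluster, a large maternally expressed miRNA cluster on chromosome 12 that is active in stem cells and some liver tumours, held members on both sides. Of 45 members of this list on the array 5 were measured, 2 of them higher in H22 and 1 lower, beside 33.7% and 3.26% of all members. miR-770-3p, which is not in the list but lies in the same region (chr12:109563744-109563765, plus strand), had a log2 fold of 0.88. miR-668 had spots of 3.21, 3.17, 4.56 and 5.36 in H22, against 0.934, 0.904, 0.897 and 1.30 in Hepa1-6 (4.04-fold). miR-494 had 9.80 ± 2.37 in H22 and 3.99 ± 0.222 in Hepa1-6 (2.46-fold, with a log2 fold of 0.44 at the lowest over the alternatives). miR-667 and miR-329, near miR-494 on the chromosome, had log2 folds of 0.32 and -0.35.

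miR-341 of the same domain was the miRNA furthest below Hepa1-6. Its spots were 0.0490, 0.0463, 0.0327 and 0.0436 in H22, all under the floor, against 0.471, 0.530, 0.424 and 0.424 in Hepa1-6, at least 3.39-fold lower in H22. Its sequence, shown because it was the member furthest lower in H22, is given with the seed in capitals (chr12:109611556-109611576, plus strand).
miR-341: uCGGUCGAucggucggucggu
The domain's median log2 fold of 0.32 turned to -0.54 at the lowest scaling, so no direction is given for it as a whole.

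The other 2 miRNAs at least 2-fold lower in H22 were less even. miR-320, made from a short hairpin without the usual first cut, had spots of 4.74, 0.414, 0.188 and 0.0872 in H22 (1.36 ± 2.26), against 5.38, 2.13, 3.72 and 2.44 in Hepa1-6 (3.42 ± 1.48). Each H22 spot lay below the Hepa1-6 spot at the same position, but 1 H22 spot made most of the mean, and the spot-by-spot SD of 2.10 exceeds the log2 fold of -1.33. Without the first spot its log2 fold was -3.57, and without the third it was -0.86. miR-714 had 0.155 ± 0.0734 in H22 and 0.333 ± 0.0804 in Hepa1-6 (log2 fold -1.10 ± 0.38). miR-705 stopped just short of 2-fold, at a log2 fold of -0.98 with an SD of 0.89.

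**Figure D4:**
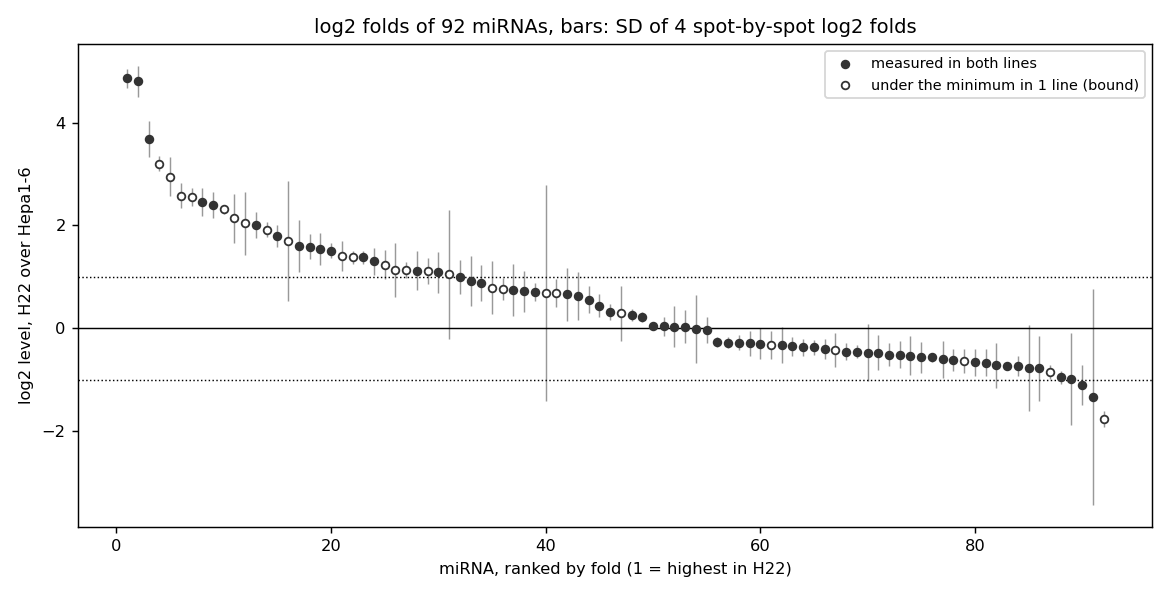
log2 fold of H22 over Hepa1-6 for the 92 miRNAs, ranked with the highest in H22 at the left. Filled points were measured in both lines, open points are bounds, and dotted lines mark 2-fold. Bars are the SD of the 4 spot-by-spot log2 folds, taken against the minimum for bounds. The 3 miRNAs below the lower line are miR-714, miR-320 with its SD of 2.10, and miR-341.

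The Sfmbt2 cluster, a rodent cluster of many near-identical miRNAs known from placenta and embryonic cells, was lower in H22 by less than 2-fold. Of 8 members on the array 5 were measured in both lines and none reached 2-fold under the authors' scaling. miR-467b* (log2 fold -0.37), a miR-466d-3p probe whose name ends in the unexplained suffix MM1 (-0.56), miR-669a (-0.66), the shared miR-467a* and miR-467d* probe (-0.73) and miR-669c (-0.77) all lay on the same side. The median of -0.66 ran between -1.52 and -0.55 over the alternatives. The shared probe of this pair, miR-467a* and miR-467d*, had 0.842 ± 0.146 in H22 and 1.39 ± 0.220 in Hepa1-6 with an SD over spot-by-spot folds of 0.08, and miR-669c had an SD of 0.84. Such near-identical copies can share a probe, so these are not 5 separate measurements.

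Measured members of other known groups also sat on the lower side, without reaching 2-fold under the authors' scaling. miR-34a and miR-34c, targets of the tumour suppressor p53, had log2 folds of -0.61 (1.30 ± 0.165 in H22, 2 ± 0.256 in Hepa1-6) and -0.53. miR-34c rests on the brighter of 2 probes, the other being under the minimum. miR-210, induced by low oxygen, had 0.452 ± 0.0383 in H22 and 0.667 ± 0.0597 in Hepa1-6 (log2 fold -0.56 ± 0.09). The muscle miRNAs miR-1 and miR-206, which share a seed, had log2 folds of -0.29 and -0.67, while the muscle miRNAs miR-133a and miR-133b were at 6.75 units or less in both lines. At the lowest over the alternatives the log2 folds passed 2-fold: -1.47 for miR-34a, -1.39 for miR-34c, -1.42 for miR-210, -1.15 for miR-1 and -1.53 for miR-206.

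Nearly as many miRNAs were near equal in both lines as were higher in H22. Of the 92 members, 30 (32.6%) were measured in both lines and less than 1.5-fold apart, 9 slightly higher in H22 and 21 slightly lower. For 8 of them the difference stayed within 1.5-fold even with 2 spot-by-spot SDs added, among them miR-185, miR-689, miR-690, miR-720, miR-713, miR-691 and miR-801. miR-185 was the most even, with spots of 4.65, 4.54, 4.50 and 4.50 in H22 and 4.52, 4.15, 4.42 and 4.63 in Hepa1-6 (log2 fold 0.04 ± 0.07). Near equality is relative to the scaling, and the log2 fold of miR-185 ran between -0.91 and 0.10 over the alternatives.

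Of the near-equal miRNAs, 4 belong to the list of names read here as fragments of other RNAs. This reading was not tested, and miR-690 of this list was matched to a RefSeq miRNA. miR-720, a fragment of a transfer RNA, had 0.232 ± 0.0190 in H22 and 0.226 ± 0.0277 in Hepa1-6. miR-689 (6.22 ± 0.479 in H22, 5.20 ± 0.316 in Hepa1-6), miR-690 (1.98 ± 0.281 in H22, 1.70 ± 0.140 in Hepa1-6) and miR-801 (0.659 ± 0.0544 in H22, 0.798 ± 0.0788 in Hepa1-6) were each under 1.5-fold apart. The fifth measured member, miR-805, was under the minimum in H22 and at 0.182 ± 0.0374 in Hepa1-6, a bound of 1.34-fold. The list's median of 0.04 moved to -0.82 under the lowest scaling. Members of the miR-15 and miR-16 seed family were mixed: miR-195 and miR-322 were near equal (log2 folds 0.03 and -0.37) and miR-16 was at least 2.16-fold higher in H22.

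Other groups held few measured members. In the miR-183, miR-96 and miR-182 cluster, known from sensory cells, miR-183* had 4.15 ± 0.610 in H22 and 1.90 ± 0.232 in Hepa1-6, while miR-183 itself, the opposite arm of the same hairpin, had 27 units in H22 and 9.5 in Hepa1-6, under the minimum in both. The family of miR-125, miR-100 and miR-99 had 2 of 5 members measured, with a median log2 fold of 0.98. The miR-322-351 cluster on chromosome X had 2 of 7 measured, with a median of 0.28 that came to -0.64 at the lowest scaling. miR-31, linked to invasion in some tumours, had 0.137 ± 0.0540 in H22 and 0.190 ± 0.0311 in Hepa1-6 (log2 fold -0.47 ± 0.56), a difference within its spot spread.

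**Figure D5:**
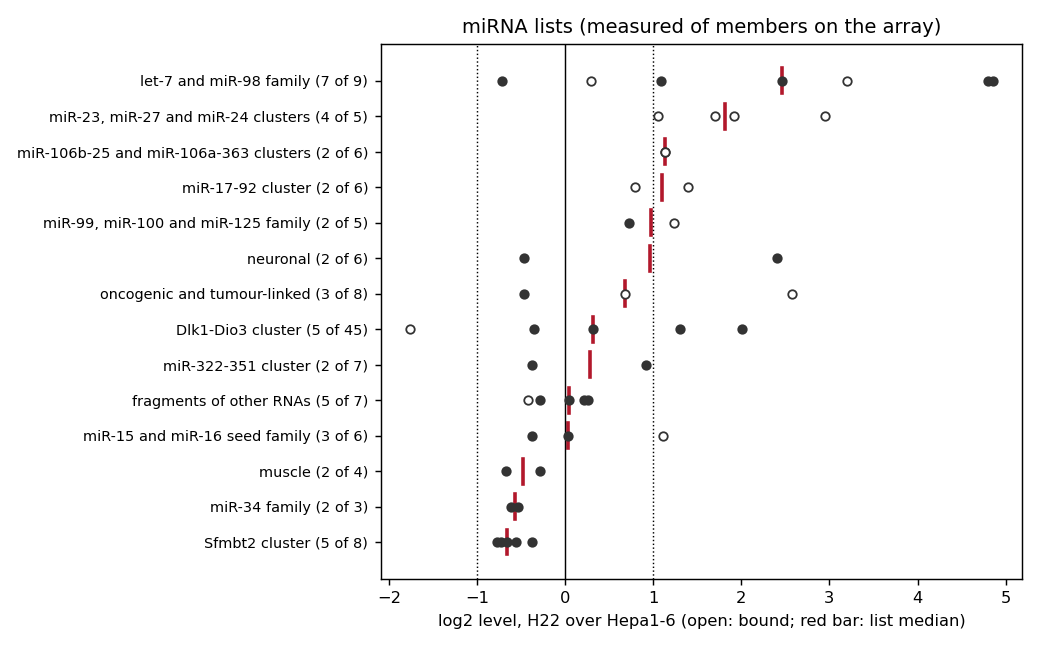
log2 fold of H22 over Hepa1-6 for the measured members of each list, 1 row per list with the number measured of those on the array; filled points were measured in both lines, open points are bounds, red bars are list medians and dotted lines mark 2-fold. The let-7 family has the highest median (2.46) and the Sfmbt2 cluster the lowest (-0.66).

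The listed markers of normal liver cells, leukocytes, erythroid, endothelial and epithelial cells were under the minimum in both lines. None of 5 hepatocyte miRNAs on the array was measured: miR-122 had 22.25 units in H22 and 33 in Hepa1-6, and the highest of the list was 39 units (miR-194 in Hepa1-6). Their summed levels were 0.192 in H22 and 0.198 in Hepa1-6. None of 7 leukocyte miRNAs was measured, the highest being miR-155 at 43.75 units in H22 against 5.5 in Hepa1-6, and their summed levels were 0.268 in H22 and 0.0427 in Hepa1-6. The leukocyte-defining miR-142-3p and miR-223 were at 8.75 and 7.75 units in H22, against 0.25 and 5 in Hepa1-6. None of 3 erythroid, 2 endothelial and 6 epithelial miRNAs was measured, and of 5 mesenchymal ones only miR-214 was (log2 fold -0.33). The epithelial list does not hold miR-200b*, the opposite arm of the miR-200b hairpin, which was measured in both lines. It had 79 units in H22 and 51.5 in Hepa1-6 (log2 fold 0.75 ± 0.51), while miR-200b itself had 17.5 in H22 and 47.5 in Hepa1-6. Families with no measured member were miR-29, miR-30, miR-103/107, miR-181, miR-221/222 and miR-290.

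Signal far below the minimum also differed between the arrays. The 7 negative control probes lay at 4.5 to 8 units in H22 and at 0 to 2.75 in Hepa1-6, and the median mouse probe at 11 units in H22 and 3.5 in Hepa1-6. Single probes under 50 units in both lines are therefore given in units with no fold, and sums over marker lists describe the arrays and are not read as folds. Subtracting the median negative control from each array, an alternative chosen after the data were seen, gave 28 miRNAs higher in H22 and 5 lower.

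Across the 66 miRNAs measured in both lines, log2 levels correlated with r = 0.759, a description across miRNAs that share probes and array. The spot CV of measured members had a median of 19.7% in H22 (1.56% to 166%) and 19.2% in Hepa1-6 (4.65% to 52.6%). Among those measured in both lines, the widest spot-by-spot SDs belonged to miR-320 (2.10), miR-705 (0.89), miR-669c (0.84), miR-688 (0.66) and miR-761 (0.64), and the narrowest to miR-185 (0.07), the shared miR-467a* and miR-467d* probe (0.08), miR-210 (0.09), miR-691 (0.10) and miR-690 (0.10). Among the bounds, miR-26a had an SD of 2.10, taken against the minimum. With H22 spots of 0.0327, 0.0218, 0.338 and 0.401, miR-26a was above the minimum through 2 of 4 spots.

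Sequence composition differed a little between the sets. The median GC content of the mature sequence was 47.8% for the 29 matched miRNAs 2-fold or more higher in H22, 54.5% for the 21 matched near-equal ones, 54.5% for the 11 matched that were 1.5-fold or more lower, and 50% over all 74. These are descriptions, and the part of GC content in the signal was not tested. The miRNAs with the seed CCCUGAG, miR-125b-5p, miR-351 and miR-125a-5p, had log2 folds of 1.24, 0.92 and 0.72. miR-351 came to 0.00 under quantile normalization and miR-125a-5p to -0.13 under the 75th percentile of all mouse probes.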

How the data were processed

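Total RNA of H22 and Hepa1-6, 1 sample and 1 array each, was hybridised to a miRCURY LNA array and scanned on a GenePix 4000B, per the labels. The authors deposited intensity values on a linear scale: foreground intensity per spot, background-subtracted intensity per spot and probe, and normalized intensity per probe. Per the labels, replicate spots were averaged and the arrays were divided by the median over miRNAs at 50 or more in all samples. The deposited normalized intensity was recomputed from the spots, with a largest difference of 7.11e-15. The probe release and genome build were not given in the sources used here, and no coordinates come from the files.

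The array had 417 mouse probes with 4 spots each, and where 2 probes carried 1 name (3 names) the one brighter in the mean over the 4 arrays was kept, which for miR-744 is the dimmer in H22. Local background lay between 31 and 56 units. The number of arrays limits the precision. Folds of 2 and 1.5 were set as thresholds, and no test was run. Named miRNAs were the 10 widest folds and 10 widest bounds per direction, the 10 nearest to equality, the 5 brightest per line, the 5 with the widest and narrowest spot spread, and measured members of the lists, others being given by count or range. The miRNAs compared and the lists were chosen with earlier results of these data known. Counting was tested on simulated data. Alternatives covered scaling, minimum, background correction (normexp of limma 3.58.1 in R 4.3.3, offset 50), spot summary and thresholds. Other steps used Python 3.11.15 with pandas 2.3.3 and numpy 2.4.6.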

Additional observations from a re-analysis of the deposited data

Results flagged for a closer look

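Among control, miRPlus and small nucleolar RNA probes at 50 units or more in either line, 7 were 2-fold or more higher in H22 than in Hepa1-6 (3 of 6 internal controls, 3 of 15 miRPlus probes and hsa_SNORD2), while the 7 negative controls stayed at 8 units or less. An internal control (block 4, column 2, row 1) had a log2 fold of 4.22 (level 7.83 ± 0.684 in H22, 0.419 ± 0.0312 in Hepa1-6), and a further one (block 1, column 11, row 7) had at least 3.30. Another internal control (block 7, column 10, row 3) had 1.62, with levels of 0.483 ± 0.334 in H22 and 0.157 ± 0.100 in Hepa1-6. The targets of these controls are not given in the sources used here. Among miRPlus probes, which carry the maker's own sequences, miRPlus_17840 had a log2 fold of 3.01 (1.22 ± 0.266 in H22, 0.152 ± 0.0180 in Hepa1-6), miRPlus_28431 had 2.34 (10.6 ± 2.19 in H22, 2.10 ± 0.0680 in Hepa1-6) and miRPlus_17865 had at least 1.02. The small nucleolar RNA probe hsa_SNORD2 had at least 1.16, with 101.25 units in H22 and 43.5 in Hepa1-6. U6 and hsa_SNORD3@ were under 2-fold apart. For comparison, 31 (33.7%) of the 92 mouse members were 2-fold or more higher in H22 and 3 (3.26%) lower. Of 313 probes not designed for mouse at 50 units or more in either line, 50 were 2-fold or more higher in H22 and 14 lower, with a median log2 fold of 0.00. Of 23 obsolete probes 4 were higher and 3 lower.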

How the results depend on the processing

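With 1 array per line, no p-value depends on the processing, and the arrays' number and the minimum of 50 units limit what can be said. No paired analysis was possible because each line has 1 array. The balance of higher and lower miRNAs (31 and 3 of 92) depended on the scaling: 17 higher and 23 lower with a median log2 fold of -0.47 under quantile normalization, 14 and 37 with -0.55 under the 75th percentile of all mouse probes, and 15 and 33 with -0.40 under the 75th percentile of the miRNAs detected on all arrays. The near-equal count of 30 was 15 under each percentile scaling. The let-7 median of 2.46 was 1.99, 1.60 and 1.76 under these scalings in the same order. The count lower in H22 was 6 with the median over probes detected in both lines (median log2 fold 0.10), 5 with no scaling, with all capture probes setting the factor, with the median of spots and with the negative control median subtracted, 6 with a minimum of 30, and 7 without spot 4. A minimum of 100 left 21 miRNAs 2-fold apart, 20 higher and 1 lower. A 1.5-fold threshold gave 59 (16 lower), a 3-fold threshold 19 (18 higher, 1 lower), and a limit of 2 combined SDs left 1 lower. A narrower limit for near equality gave 14 miRNAs, and 2-fold gave 49. Of 32 named miRNAs 2-fold apart, 13 stayed so under all 18 alternatives, among them bounds, whose direction follows from the minimum. The bound of miR-27b came to -0.03 under quantile normalization. The cause of these shifts was not tested.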
